A study of Homo sapiens with 6 samples.

Results

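The HOX gene clusters were taken as the 39 protein-coding genes named HOXA, HOXB, HOXC or HOXD with a number, out of 57885 genes counted. The counts came from RNA-seq of HEK293 cells, a human embryonic kidney cell line, in 2 groups of 3 libraries each: wild type (WT) and MUL1(-/-). MUL1 is a mitochondrial E3 ubiquitin ligase, and the MUL1(-/-) line was made with CRISPR-Cas9. The comparison asks which transcripts differ when MUL1 is inactivated. Both groups were grown in the same serum-supplemented DMEM with no further treatment. The labels do not say whether the 3 libraries of a group came from separate cultures, nor how many edited clones the MUL1(-/-) libraries represent, so p-values measure only the spread between these libraries, which may be technical. In bulk RNA, fewer cells that express a gene and less RNA per cell cannot be told apart.

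HOX genes encode homeodomain transcription factors that set position along the body axis of the embryo. They lie in clusters in which the order of the genes follows the order of their expression domains from head to tail, and genes at the same place in different clusters are called a paralogue group. HOX proteins bind DNA together with TALE homeodomain cofactors of the PBX and MEIS families, and Polycomb and Trithorax proteins keep the clusters silent or active. In the kidney, the paralogue group 11 genes are known for their part in forming the metanephric kidney.

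The HOXA cluster is on chromosome 7 and the HOXB cluster on chromosome 17, both on the minus strand, and the HOXC cluster on chromosome 12 and the HOXD cluster on chromosome 2, both on the plus strand (GRCh38, GENCODE 29). The gene totals were 139040422 to 156245451 counts in WT and 133474497 to 134286388 in MUL1(-/-), counted over exon bins and summed by gene. Replicates differed by 3.32 to 11.1 times the sampling noise, so no library was a copy of another. MUL1 itself had 1962, 2146 and 2396 counts in WT and 2366, 2084 and 2378 in the libraries labelled MUL1(-/-), a log2 fold change of 0.14 (adjusted p = 0.302, edgeR's quasi-likelihood test). The summed counts of MUL1 thus say nothing about which libraries were edited. Single exon bins of MUL1 and reads over the edited site were not examined, so every direction rests on the libraries as labelled. The list of 10 HEK293 markers mixes epithelial and embryonic kidney genes with VIM and neurofilament genes such as NEFM. It summed to 1293 to 1485 CPM in WT and 977 to 1127 CPM in MUL1(-/-). VIM alone averaged 767 CPM in WT and 608 CPM in MUL1(-/-), so the sum is not a measure of epithelial or kidney genes alone. Every marker was detected, with PAX8 near 0 in both genotypes. At an adjusted p under 0.05 in edgeR's test, 2 of the 10 were higher and 4 lower in MUL1(-/-), against 19.3% and 18.5% of all genes. PAX2, a kidney developmental factor, was lower by 1.79 on the log2 scale, KRT8 by 0.93, LHX1 by 0.54 and VIM by 0.33. NEFM, 1 of the 2 higher markers, was higher by 1.07, and the rest of the 10 did not pass. The list thus moved in both directions.

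Of the 39 genes, 20 had a promoter window in the RefSeq table, 27 windows in all because some genes have several starts. The windows of 3 HOXA genes follow, since HOXA9, HOXA10 and HOXA7 are among the HOX genes that rose and HOXA10 has 2 starts whose exon bins had unequal values. Each sequence is the 250 bases before a start, read 5′ to 3′ on the minus strand (RefSeq, GRCh38.p14), and the capitals mark, on either strand, the letters TATAAA of the TATA box, the letters GGGCGG of the GC box, and the letters TTTATG of a caudal-type motif.

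HOXA9, chr7:27165538-27165787: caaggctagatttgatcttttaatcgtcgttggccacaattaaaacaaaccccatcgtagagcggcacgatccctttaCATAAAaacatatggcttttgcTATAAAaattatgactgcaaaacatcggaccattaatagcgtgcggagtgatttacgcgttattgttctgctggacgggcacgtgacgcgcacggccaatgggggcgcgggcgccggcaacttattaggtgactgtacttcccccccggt

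HOXA10, upstream start, chr7:27179862-27180111: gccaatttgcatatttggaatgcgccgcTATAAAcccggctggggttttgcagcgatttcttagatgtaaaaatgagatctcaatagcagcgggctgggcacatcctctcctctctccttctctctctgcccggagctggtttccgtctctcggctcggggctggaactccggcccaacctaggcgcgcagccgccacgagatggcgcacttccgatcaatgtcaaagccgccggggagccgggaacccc

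HOXA10, downstream start, chr7:27174321-27174570: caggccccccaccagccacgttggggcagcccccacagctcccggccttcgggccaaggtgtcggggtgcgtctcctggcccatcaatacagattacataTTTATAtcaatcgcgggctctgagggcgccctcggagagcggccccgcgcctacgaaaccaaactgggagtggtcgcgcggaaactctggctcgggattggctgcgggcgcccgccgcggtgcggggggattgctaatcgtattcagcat

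HOXA7, chr7:27156676-27156925: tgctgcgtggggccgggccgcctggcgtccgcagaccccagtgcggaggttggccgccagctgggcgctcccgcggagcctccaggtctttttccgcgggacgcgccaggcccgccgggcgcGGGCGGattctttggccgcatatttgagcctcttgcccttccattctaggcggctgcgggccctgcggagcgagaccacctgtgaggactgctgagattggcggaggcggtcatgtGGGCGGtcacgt

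The letters TATAAA were in 5 of the 27 HOX windows (18.5%), against 10.7% of 35116 windows of the same length in the table. GGGCGG was in 13 of 27 (48.1%), against 42.6%, and TTTATG in 3 of 27 (11.1%), against 9.64%. AGGTCA was in 0 of 27, against 12.1%. Both starts of HOXA10 and the HOXA9 start held TATAAA, and the HOXA7 window held GGGCGG in its place. The windows of HOXC4 and HOXC5 are the same bases, and some genes give several windows, so the HOX windows are not independent. These matches are a description of the letters and not of binding.

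Levels were given as CPM, counts scaled to a common library total, after TMM scaling, a correction for differences in composition between libraries. Per kb of exon bins, HOXA9 was the highest HOX gene in WT, at 27.2 to 36.0 CPM per kb, followed by HOXB9 at 18.9 to 23.4 CPM per kb. A read over several bins or joined genes can be counted several times, which can raise genes with many bins in this order. HOXA9 had 17 bins and HOXB9 had 2. HOXD10 was at 17.8 to 18.7 CPM per kb, and its range overlapped that of HOXA5. Of the 38 neighbouring pairs in this order, 23 had overlapping WT ranges, so most single steps of the order were within the spread of the libraries. HOX genes of all 4 clusters and of anterior, central and posterior paralogue groups were expressed in these cells, with 37 of 39 members above 10 counts in every library. The exceptions were HOXB1, with 1, 3 and 2 counts in WT and 3, 2 and 0 in MUL1(-/-), and HOXC12, with 8, 18 and 5 counts in WT and 6, 2 and 3 in MUL1(-/-), both too low for the test. HOXD12, a posterior HOXD gene, was also low, at 22 to 51 counts per library. In MUL1(-/-) HOXA9 was again first, at 50.1 to 56.3 CPM per kb. HOXC11 went from place 24 in the WT order to place 33 in MUL1(-/-).

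**Figure D1:**
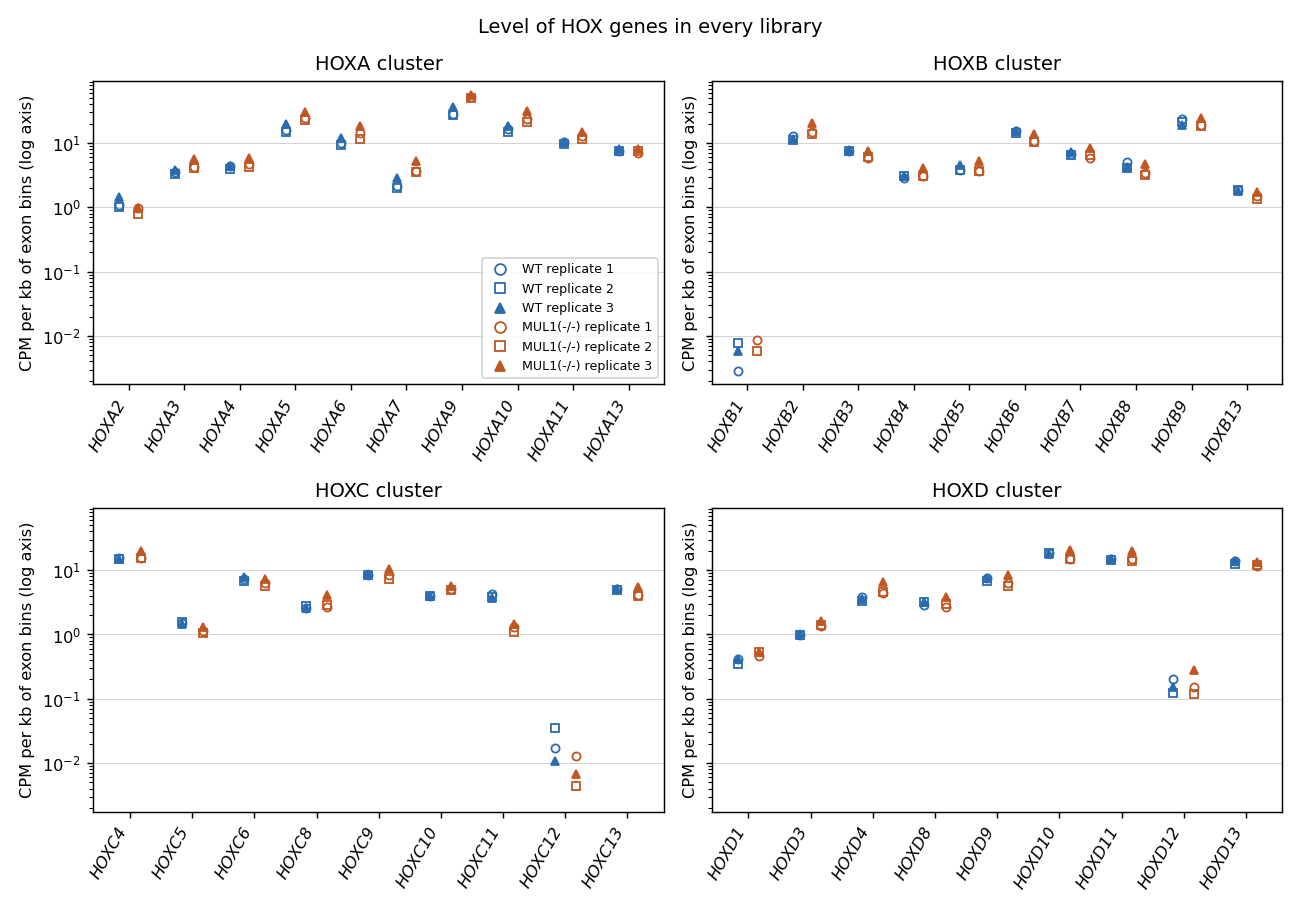
CPM per kb of exon bins on a log axis for HOX genes in every library, in order along the 4 clusters, with blue for WT, orange for MUL1(-/-) and 1 symbol for each replicate. HOXB1 and HOXC12 sit far below the other genes, a value of 0 (HOXB1 in MUL1(-/-) replicate 3) is not drawn, and HOXC11 is the gene whose genotypes lie furthest apart.

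Of the 37 genes tested, 0 were higher and 1 was lower at an adjusted p under 0.05 together with an absolute log2 fold change above 1, the thresholds of the study's methods. Across all 26060 genes tested these thresholds called 7.91%, 4.17% higher and 3.75% lower. At the adjusted p alone, 11 HOX genes were higher and 4 lower, 15 of 37, against 37.8% of all genes tested (19.3% higher and 18.5% lower), so the share of HOX genes called was near the background. The CPM of the genotypes did not overlap for 17 HOX genes, 11 higher and 6 lower, against 49.0% of all genes tested (24.9% higher and 24.1% lower). The 4 lower genes became 2 without WT replicate 1, and 1 without MUL1(-/-) replicate 1 or without MUL1(-/-) replicate 2. The median log2 fold change was 0.06 for the HOX genes and -0.0013 for all genes.

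The libraries of MUL1(-/-) differed among themselves in HOX level. MUL1(-/-) replicate 3 held the highest value of its group in 36 of 37 HOX genes, against 39.1% of all genes tested, and its median log2 ratio to the other 2 libraries was 0.40 for the HOX genes and 0.006 for all genes. In WT no library held more than 23 of the 37 highest values. This was noticed after the values were seen, and what sets that library apart was not tested. Summed over all HOX exon bins, with each bin counted once per cluster, the total was 764, 725 and 798 CPM in WT and 827, 797 and 1036 CPM in MUL1(-/-). Without MUL1(-/-) replicate 3, 10 HOX genes were higher and 11 lower at the adjusted p alone, against 35.6% of all genes tested in that fit (18.0% higher and 17.7% lower), and the median log2 fold change of the HOX genes was -0.12. The genes lower in that fit were HOXA2, HOXB3, HOXB6, HOXB8, HOXB13, HOXC5, HOXC6, HOXC11, HOXC13, HOXD9 and HOXD10. HOXC11 alone passed both thresholds in either fit. Both thresholds called 7.86% of all genes without that library, 4.37% higher and 3.49% lower.

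**Figure D2:**
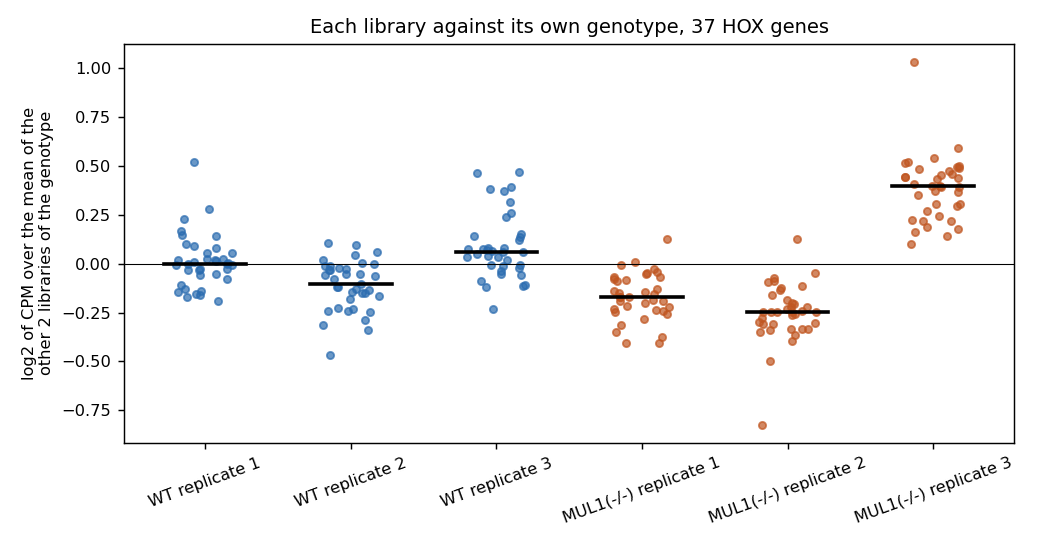
For each library, the log2 of the CPM of each of the 37 tested HOX genes over the mean of the other 2 libraries of the same genotype, with the median as a black bar. Points are genes, and MUL1(-/-) replicate 3 lies above the line at 0 for all of them, with a median of 0.40.

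In the HOXA cluster 7 of 11 genes rose and none fell at the adjusted p alone, against 19.3% of all genes higher and 18.5% lower. HOXA5, HOXA6, HOXA7, HOXA9, HOXA10 and HOXA11, which lie side by side, were among the 7, with log2 fold changes of 0.39 to 0.83. This stretch was drawn after the values were seen. HOXA6 overlapped between the genotypes, and HOXA11 did not pass in its unshared bins. The cluster total was 285, 270 and 334 CPM in WT and 415, 391 and 495 CPM in MUL1(-/-), so the genotypes did not overlap, and its share of all HOX counts was 38.8% in WT and 49.0% in MUL1(-/-). The totals of the other clusters overlapped between the genotypes, at 219 CPM in WT and 209 CPM in MUL1(-/-) for HOXB, 119 and 115 CPM for HOXC, and 129 and 128 CPM for HOXD (means, n = 3). Without MUL1(-/-) replicate 3, the same 6 genes from HOXA5 to HOXA11 were still higher, and HOXA3 was not.

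HOXA9, a homeodomain factor known for its role in blood stem cells and leukaemia, was the most abundant HOX gene by count. It had 12094, 12741 and 15077 counts in WT and 21937, 20821 and 22866 in MUL1(-/-). All 3 MUL1(-/-) libraries lay above all 3 WT libraries. HOXA9 rose by 0.79 ± 0.10 (SE) on the log2 scale, 1.73-fold, with an adjusted p of 2.0e-05 in edgeR's quasi-likelihood test. Its unshared bins gave 0.79 as well, and without MUL1(-/-) replicate 3 the value was 0.74.

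HOXA7 had 727, 737 and 952 counts in WT and 1228, 1186 and 1679 in MUL1(-/-). It rose by 0.83 ± 0.16 on the log2 scale (adjusted p = 8.54e-04, edgeR), by 0.65 in its unshared bins and by 0.64 without MUL1(-/-) replicate 3. The 3 MUL1(-/-) values again lay above the WT values. HOXA5, known for its part in lung development, had 3801, 3867 and 4717 counts in WT and 5850, 5432 and 7062 in MUL1(-/-). It rose by 0.64 ± 0.12 on the log2 scale (adjusted p = 8.05e-04, edgeR).

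HOXA10, known for its part in uterine development, had 8517, 8493 and 9565 counts in WT and 12081, 11022 and 15567 in MUL1(-/-). It rose by 0.61 ± 0.12 on the log2 scale, and by 0.44 in its unshared bins, with an adjusted p of 1.03e-03 and 8.08e-03 in edgeR's test. HOXA6 had 1795, 1869 and 2143 counts in WT and 2582, 2049 and 3147 in MUL1(-/-), and the genotypes overlapped in CPM, with a log2 fold change of 0.50 (adjusted p = 0.0124, edgeR). That call was lost without WT replicate 1 or without WT replicate 2, and the value was 0.31 without MUL1(-/-) replicate 3.

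HOXA11, a paralogue group 11 gene of the developing kidney, had 3303, 3491 and 3273 counts in WT and 4108, 3729 and 4676 in MUL1(-/-). Its summed bins rose by 0.39 on the log2 scale (adjusted p = 3.67e-03, edgeR). Only 48.0% of its counts were in bins that no other gene touches, and those bins gave 0.16 (adjusted p = 0.178), so the call rested on bins shared with HOXA11-AS. HOXA3 rose by 0.39 (adjusted p = 0.0170), but by 0.25 in its unshared bins (adjusted p = 0.171), and also missed the threshold without MUL1(-/-) replicate 3 (0.22, adjusted p = 0.0662), without WT replicate 1 or without WT replicate 2.

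HOXA2 and HOXA4, outside that stretch, did not pass. HOXA2 had a log2 fold change of -0.38 (adjusted p = 0.0699, edgeR) and HOXA4 had 0.20. HOXA13, at the posterior end, was at 38.1, 38.7 and 40.5 CPM in WT and 36.0, 37.6 and 41.7 CPM in MUL1(-/-), overlapping ranges with a log2 fold change of -0.02. HOXA2 did not overlap between the genotypes, with all MUL1(-/-) values below the WT values.

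**Figure D3:**
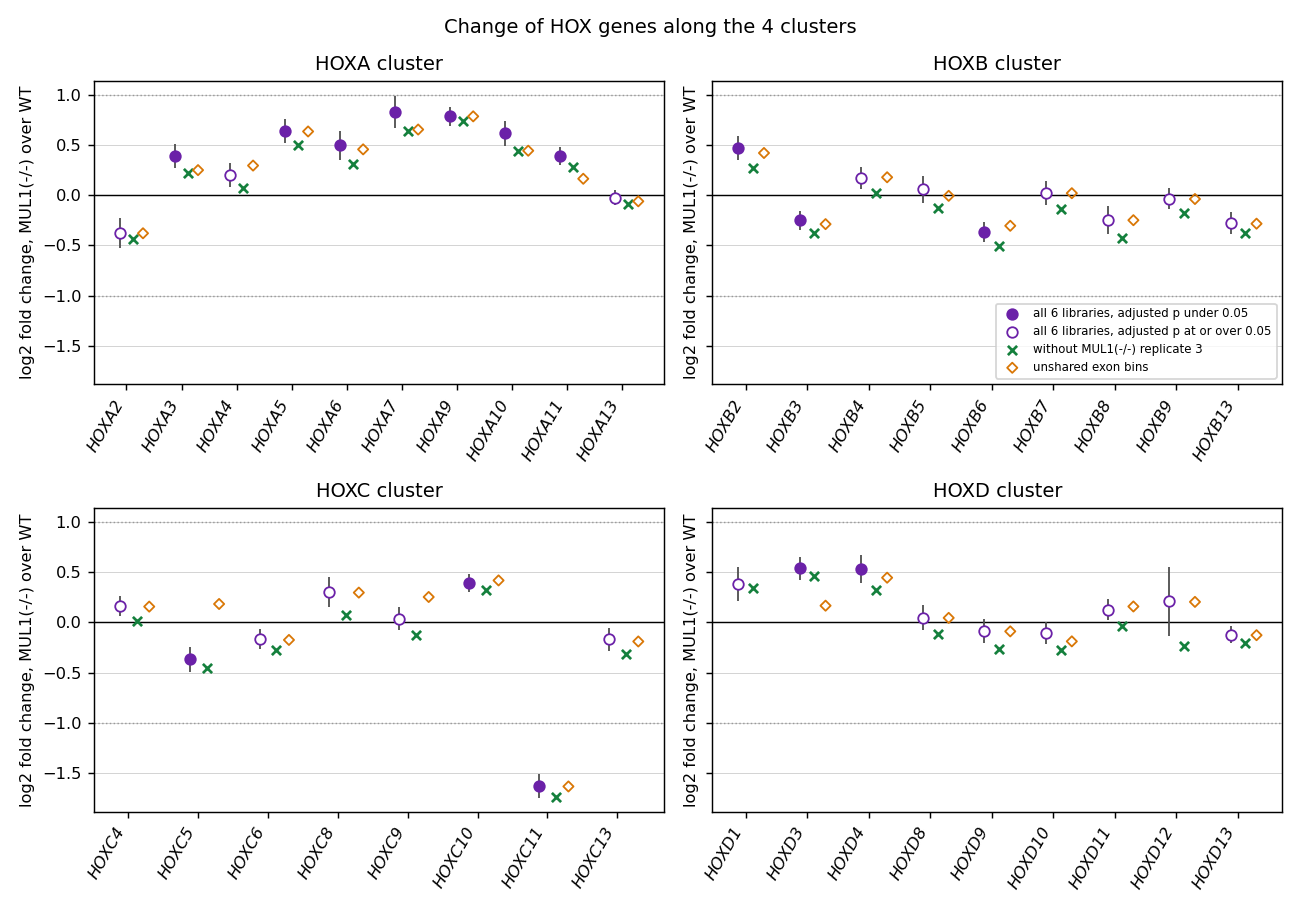
Log2 fold change of MUL1(-/-) over WT for tested HOX genes along the 4 clusters: purple circles with SE bars for all 6 libraries (filled where the adjusted p is under 0.05), green crosses without MUL1(-/-) replicate 3, and orange diamonds for exon bins that no other gene touches. The HOXA genes from HOXA5 to HOXA11 lie above 0 in each version, and HOXC11 is the gene beyond the dotted line at -1.

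HOXC11 was the HOX gene that passed both thresholds. This paralogue group 11 homeodomain factor had 1958, 1950 and 1688 counts in WT and 582, 489 and 642 in MUL1(-/-). All MUL1(-/-) libraries were well below all WT libraries, at 3.56 to 4.79 CPM against 12.2 to 13.9 CPM. HOXC11 fell by 1.63 ± 0.12 (SE) on the log2 scale, a level 3.10-fold lower, with an adjusted p of 1.83e-07 in edgeR's quasi-likelihood test. No bin of HOXC11 is shared with another gene, and the longest stretch of bases it has in common with another HOX gene was 22 bases, with HOXD10. The fall was -1.53 to -1.74 under all alternatives run. The other group 11 genes had 0.39 in HOXA11 and 0.13 in HOXD11 (adjusted p = 0.386, edgeR).

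The next HOXC gene on the chromosome, HOXC10, went the other way. It had 1314, 1445 and 1284 counts in WT and 1643, 1586 and 1787 in MUL1(-/-), and rose by 0.39 on the log2 scale (adjusted p = 3.71e-03, edgeR). The genotypes did not overlap. With the joined HOXC identifier kept whole the value was 0.08 and did not pass. HOXC5 had 384, 442 and 363 counts in WT and 288, 265 and 318 in MUL1(-/-), and its summed bins fell by 0.37 (adjusted p = 0.0347), while its unshared bins, with only 13.0% of its counts, gave 0.18. The direction of HOXC5 is therefore uncertain, and the call was also lost without WT replicate 1 or 2 and without MUL1(-/-) replicate 1 or 2. HOXC4, the most abundant HOXC gene, was at 41.7, 41.0 and 41.1 CPM in WT and 41.6, 41.9 and 55.1 CPM in MUL1(-/-), so the group mean was raised by replicate 3, and the log2 fold change was 0.16 (adjusted p = 0.217). HOXC6, HOXC8, HOXC9 and HOXC13 had log2 fold changes between -0.17 and 0.30 and did not pass.

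In the HOXB cluster 1 of 9 tested genes rose and 2 fell at the adjusted p alone, against 19.3% and 18.5% of all genes. HOXB2, an anterior gene with a known role in the hindbrain, had 4153, 4046 and 3788 counts in WT and 4771, 4491 and 6428 in MUL1(-/-). It rose by 0.47 ± 0.12 on the log2 scale (adjusted p = 6.91e-03, edgeR), and by 0.27 without MUL1(-/-) replicate 3, with all MUL1(-/-) values above WT. HOXB6 had 5544, 5820 and 5546 counts in WT and 3840, 3758 and 4848 in MUL1(-/-), and fell by 0.36 (adjusted p = 9.72e-03). Its CPM did not overlap, and the call was lost in unshared bins (adjusted p = 0.0502) and without MUL1(-/-) replicate 1 or without MUL1(-/-) replicate 2. HOXB3 fell by 0.25 (adjusted p = 0.0433), and by 0.38 without MUL1(-/-) replicate 3. The call was lost with DESeq2 (adjusted p = 0.0564) and when any library other than MUL1(-/-) replicate 3 was left out. The other tested HOXB genes, HOXB4, HOXB5, HOXB7, HOXB8, HOXB9 and HOXB13, had log2 fold changes from -0.28 to 0.17.

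HOXB9 illustrates the spread of the MUL1(-/-) libraries. It was at 60.4, 54.1 and 48.8 CPM in WT and 49.0, 47.3 and 63.2 CPM in MUL1(-/-), overlapping ranges with a log2 fold change of -0.03. HOXB13, a posterior gene of the prostate and hindgut, lies away from the rest of the cluster. It was at 6.36, 6.49 and 6.25 CPM in WT and 5.12, 4.69 and 5.91 CPM in MUL1(-/-), which did not overlap, with a log2 fold change of -0.28 (adjusted p = 0.0586, edgeR).

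In the HOXD cluster 2 of 9 tested genes rose, against 19.3% of all genes, and they are neighbouring anterior genes. HOXD3 had 488, 531 and 504 counts in WT and 664, 674 and 760 in MUL1(-/-), and rose by 0.54 ± 0.11 on the log2 scale (adjusted p = 1.65e-03, edgeR). HOXD4 had 782, 751 and 718 counts in WT and 901, 906 and 1278 in MUL1(-/-), and rose by 0.53 ± 0.14 (adjusted p = 8.24e-03), and by 0.33 without MUL1(-/-) replicate 3. Both genes are joined under 1 identifier in the deposited tables, together with AC009336.2. Most counts of each gene were in bins shared with some other gene. In unshared bins, which hold 9.06% of the counts of HOXD3 and 26.8% of those of HOXD4, the log2 fold changes were 0.17 (adjusted p = 0.631) and 0.44 (adjusted p = 0.0517), and neither passed.

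The posterior HOXD genes overlapped between the genotypes. HOXD10 was at 50.4, 49.2 and 47.9 CPM in WT and 40.6, 40.6 and 55.8 CPM in MUL1(-/-), with a log2 fold change of -0.11 (adjusted p = 0.469, edgeR). HOXD13 was at 31.3, 28.3 and 30.9 CPM in WT and 25.7, 26.7 and 30.6 CPM in MUL1(-/-), with a log2 fold change of -0.12. HOXD8, HOXD9, HOXD11 and HOXD12 lay between -0.09 and 0.21. HOXD1, with a log2 fold change of 0.38, did not overlap between the genotypes and did not pass (adjusted p = 0.0841), and all of its bins are shared.

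The values of a paralogue group can be set side by side across the clusters. HOXA3, HOXB3 and HOXD3 had log2 fold changes of 0.39, -0.25 and 0.54, and HOXA4, HOXB4, HOXC4 and HOXD4 had 0.20, 0.17, 0.16 and 0.53. Group 9 had 0.79 in HOXA9, -0.03 in HOXB9, 0.04 in HOXC9 and -0.09 in HOXD9. Group 10 had 0.61 in HOXA10, 0.39 in HOXC10 and -0.11 in HOXD10. Whether these differ between clusters was not tested, and the members share the same libraries.

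Exon bins were compared by their share of their gene's counts. For 3 libraries against 3 the smallest p of the exact two-sided permutation test is 0.1, so single bins cannot pass a threshold of 0.05. Of 274 bins of HOX genes with at least 20 counts on average, the shares of 96 bins, in 28 genes, did not overlap between the genotypes, 35.0%, against 17.3% of 291830 bins of all genes. The share was higher in MUL1(-/-) for 52 of them and lower for 44, against 8.73% and 8.56% of the bins of all genes. For the genes joined with another gene and HOXC11 the count was 69 of 195 bins. Bins of 1 gene share their reads and their total, so they are not independent.

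In HOXA10 the upstream and internal bins moved more than the first exon of the main transcript. The bins of HOXA10, and those of HOXC9 below, were picked from the 195 bins after their values were seen. The upstream exon at 27179646 to 27180013 is shared with the read-through gene AC004080.3. It contains the upstream start, at 27179861, and overlaps part of the window printed above for that start. This exon took 4.35, 3.996 and 5.98% of the HOXA10 counts in WT and 7.79, 6.07 and 6.68% in MUL1(-/-). Its mean level was higher by 1.11 on the log2 scale. At the downstream start, the bin at 27173932 to 27174255 took 8.67, 7.99 and 6.25% in WT and 5.69, 5.27 and 6.15% in MUL1(-/-). Its level was higher by 0.22, and that of the bin at 27174256 to 27174306 was lower by a log2 difference of -0.09. An internal exon, at 27172564 to 27172817 and unshared, was higher by 1.21. The shares of these bins did not overlap between the genotypes.

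HOXC9 showed the opposite. Its 5′ bins at 53994895 to 53994943 and 53994944 to 53995016, shared with the antisense gene HOXC-AS2 and in the second case also with HOXC6, had log2 differences of -2.08 and -2.18. The coding bins at 54000132 to 54000726 and 54002430 to 54002888 had 0.34 and 0.32. The 5′ bin at 53994944 to 53995016 held 174, 194 and 134 counts in WT and 41, 34 and 30 in MUL1(-/-), with no overlap. HOXC-AS2 itself was lower by 1.35, so the reads of these bins cannot be told apart between the 2 genes.

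HOXB7 had a bin far from the rest of the gene, at 48633514 to 48633572, that was lower although the gene was not (log2 fold change 0.02). This bin was chosen after its values were seen. It held 90, 93 and 92 counts in WT and 34, 31 and 36 in MUL1(-/-), a log2 difference of -1.37, and 6.27, 6.17 and 6.02% of the HOXB7 counts against 2.79, 2.25 and 2.11%. The other 4 bins of HOXB7 with at least 20 counts on average had differences from 0.02 to 0.13. In HOXC11 the largest bins, at 53973128 to 53973923 and 53975181 to 53976419, had differences of -1.88 and -1.55, so the fall ran through the gene.

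The reads behind joined genes are uncertain. HOXA3, HOXA4 and HOXA6 are joined under 1 identifier, as are HOXA9 with HOXA10, HOXB3 with HOXB4 and HOXB6, HOXC4, HOXC5, HOXC6, HOXC9 and HOXC10, HOXD3 with HOXD4, and HOXD10 with HOXD11. Further genes joined with them rose in part: AC004080.3, a read-through of HOXA9 and HOXA10, rose by 0.83, AC004080.5 by 0.72, AC004080.6 by 0.45 and AC009336.2 by 0.60, all at an adjusted p under the threshold in edgeR's test. AC103702.1, joined with HOXB3, had 0.01, and AC012531.2, joined with the HOXC genes, had -0.05. Identical stretches of 17 to 51 bases are shared by HOX genes at different places, the longest, 51 bases, between HOXB6 and HOXB7. Whether strand was used in counting is not given in the sources used here, so reads of a HOX gene and of its antisense RNA cannot be told apart where they overlap.

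Non-coding RNAs of the clusters were listed as 19 genes, all tested, of which 3 were higher and 6 lower at the adjusted p alone, against 19.3% and 18.5% of all genes, and 0 and 2 at both thresholds, against 4.17% and 3.75%. HOXC-AS2, antisense at the 5′ end of HOXC9, had 1090, 1378 and 943 counts in WT and 423, 374 and 464 in MUL1(-/-). It fell by 1.35 ± 0.13 (adjusted p = 2.66e-06, edgeR) and by 1.23 in its unshared bins. HOXB-AS4 had 346, 386 and 502 counts in WT and 170, 127 and 128 in MUL1(-/-), and fell by 1.47 ± 0.18 (adjusted p = 2.24e-05). HOTAIR, a non-coding RNA between HOXC11 and HOXC12, fell by 0.32 (adjusted p = 5.95e-03), and HOTTIP, beyond HOXA13, fell by 0.46 (adjusted p = 0.0285). HOXA-AS3 and HOXA11-AS, among the genes that rose in the HOXA cluster, rose by 0.79 and 0.52. HOXA10-AS rose by 0.62 but its unshared bins gave 0.13. HOXB-AS3 was the most abundant in WT, at 49.0 CPM in WT and 40.1 CPM in MUL1(-/-), and HOXA11-AS in MUL1(-/-), at 42.6 and 61.0 CPM.

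The TALE cofactors, with which HOX proteins bind DNA, had 11 genes tested, of which 4 were higher and 2 lower at the adjusted p alone, against 19.3% and 18.5% of all genes. PBX4 passed both thresholds. It had 381, 406 and 378 counts in WT and 216, 142 and 174 in MUL1(-/-), and fell by 1.06 ± 0.15 (adjusted p = 9.74e-05, edgeR). PBX2 was the most abundant, at 95.9 and 90.6 CPM. As examples of the others, PBX3 rose by 0.65, MEIS2 by 0.47 and MEIS3 by 0.46, and MEIS1 had 0.01. These examples leave out the second of the 2 lower cofactors, which was better expressed in WT than PBX3, MEIS2 and MEIS3. They do not show a rise of the expressed cofactors as a group.

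Of 25 Polycomb genes, 7 were higher and 8 lower at the adjusted p alone, against 19.3% and 18.5% of all genes, and none passed both thresholds. SUZ12, a core subunit of PRC2, rose by 0.61, and PHC1, a PRC1 subunit, fell by 0.62. RBBP4, the most abundant in WT at 503 CPM, fell by 0.33, and RBBP7, the most abundant in MUL1(-/-) at 772 CPM, rose by 0.67. Of 20 Trithorax, MLL and H3K27 demethylase genes, 6 were higher and 1 lower, against the same 19.3% and 18.5%, and none passed both thresholds. KMT2D, the most abundant of them in WT, had -0.06, MLLT1 rose by 0.79 and KMT2C fell by 0.49.

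Of 13 tested genes of the 15 on the list of HOX inducers (retinoic acid receptors, retinoic acid degrading enzymes and upstream homeodomain factors), 1 was higher and 3 were lower at the adjusted p alone, against 19.3% and 18.5% of all genes. CYP26B1, which degrades retinoic acid, passed both thresholds. It had 621, 751 and 658 counts in WT and 232, 222 and 215 in MUL1(-/-), and fell by 1.52 ± 0.12 (adjusted p = 3.57e-07, edgeR). RXRB was the most abundant, at 45.3 and 44.4 CPM. Of the retinoic acid receptors, RARB rose by 0.53 and RARG fell by 0.26. CYP26A1, another of the retinoic acid degrading enzymes, had -0.25 and did not pass (adjusted p = 0.110, edgeR). What these values mean for retinoic acid in the cells was not tested.

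Of the 24 tested genes that flank the clusters, 0 were higher and 9 lower at the adjusted p alone, against 19.3% and 18.5% of all genes, and none passed both thresholds. HNRNPA1, the most abundant, fell by 0.39. Of the 6 ParaHox genes, PDX1 fell by 0.38, and CDX2, at 12.5 and 11.2 CPM, had -0.16. GSX1, GSX2, CDX1 and CDX4 were at 0 to 2 counts per library.

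Markers of other cell types were at low levels. The 8 fibroblast markers summed to 24.1 to 31.6 CPM in WT and 27.9 to 36.8 CPM in MUL1(-/-), with COL1A1 the most abundant at 19.99 and 15.35 CPM, and LUM and DCN higher by 3.10 and 1.30 on the log2 scale and THY1 lower by a log2 difference of -1.16. Endothelial markers summed to 0.413 to 0.518 CPM in WT and 0.828 to 0.983 CPM in MUL1(-/-), with PECAM1 and VWF past both thresholds, higher by 2.07 and 1.81, and KDR the most abundant in WT. Blood markers summed to 0.674 to 1.17 CPM in WT and 1.22 to 1.54 CPM in MUL1(-/-), with PTPRC past both thresholds, higher by 1.95, SPI1 the most abundant in WT and CD3E at or under 3 counts in every library. Of the HEK293 markers, NEFM was higher by 1.07 and VIM was the most abundant, at 767 and 608 CPM. These values were not tested for their part in the HOX results.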

How the data were processed

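Per the submitters' processing notes, the authors trimmed reads with Trimmomatic 0.36 and aligned them with STAR 2.5.2b to GRCh38. The deposited values are raw counts per exon bin, 597973 bins under 54848 identifiers, and the counting program and strand setting are not given in the sources used here. Of the identifiers, 2031 join several genes, with 21.0% of the counts. Bins were summed by gene, a joined bin counting for each gene whose same-strand GENCODE 29 exons it overlaps, so a read over several bins or genes can be counted several times. The design took gene counts, and exon bins were summed to obtain them. Genes were tested with edgeR 4.0.16 (R 4.3.3; filterByExpr, TMM, quasi-likelihood, Benjamini-Hochberg over 26060 genes), where SE is the log2 fold change over the root of F. DESeq2 1.42.0 was an alternative. On simulated data for WT against MUL1(-/-), at a log2 change of 2, edgeR recovered 200 of 200 changed genes with 3 false calls among 26060. Smaller changes, such as those of the HOX genes called at the adjusted p alone, were not simulated. Named genes were all HOX genes, MUL1, list genes past both thresholds, the most abundant gene of each list and others given as examples, the last chosen after their values were seen. The members and lists were chosen with earlier results of these data known. Protein sequences were not used here. Results for some genes of the lists and clusters are not reported here, in the text or in the plots along the clusters.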

Additional observations from a re-analysis of the deposited data

How the results depend on the processing

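At both thresholds the HOX counts were 0 higher and 1 lower under every alternative run except the adjusted p alone, with 11 and 4. At the adjusted p alone the 11 higher became 7 in unshared bins, and the 4 lower became 2 with library totals or unshared bins and ranged from 1 to 11 when single libraries were left out: 1 without MUL1(-/-) replicate 1 or 2, 2 without WT replicate 1, and 11 without MUL1(-/-) replicate 3. For the other lists, 7 genes higher and 7 lower at both thresholds became 3 higher with a filter of at least 1 CPM in 3 libraries, 4 higher in the most counted bin, 1 and 3 with glmTreat, and 29 and 36 at the adjusted p alone. The replicate numbers were not taken to pair the libraries. Same-numbered libraries correlated at -0.105, 0.17 and 0.1. Libraries numbered 2 and 3 correlated best with their own number and those numbered 1 did not. With 3 libraries per genotype, such small values cannot decide whether the libraries are paired. The fit with the replicate block called 11 HOX genes higher and 5 lower at the adjusted p alone and gave MUL1 0.147.

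Direction turned, in log2 fold change, for these genes, of which HOXC5 alone had passed with all libraries. With library totals, HOXA13 was 0.037 and HOXB9 0.029. With joined identifiers kept whole, HOXB4 was -0.25, HOXC5 and HOXC6 0.085 and HOXD11 -0.028. In unshared bins, HOXB5 was -0.0058 and HOXC5 0.18, and in the most counted bin HOXD8 was -0.032. When single libraries were left out, the range was -0.087 to 0.023 for HOXA13, -0.129 to 0.149 for HOXB5, -0.137 to 0.141 for HOXB7, -0.178 to 0.045 for HOXB9, -0.126 to 0.16 for HOXC9, -0.117 to 0.157 for HOXD8, -0.269 to 0.027 for HOXD9, -0.037 to 0.231 for HOXD11 and -0.238 to 0.444 for HOXD12. The lowest of each of these ranges was without MUL1(-/-) replicate 3. The cause was not tested. Of the single-gene values under an alternative, 503 kept direction and side of the threshold, 28 lost a call, 13 gained a call and 22 turned.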

Other observations

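The region beyond HOXB9, between the body of the HOXB cluster and HOXB13, held several transcripts that were lower in MUL1(-/-), picked here after their values were seen. Beside HOXB-AS4 and the distant HOXB7 bin, LINC03057 had 1386, 1614 and 1448 counts in WT and 660, 621 and 642 in MUL1(-/-), and fell by 1.13 on the log2 scale (adjusted p = 8.10e-07, edgeR). LINC02086 had 245, 276 and 206 counts in WT and 124, 141 and 159 in MUL1(-/-), and fell by 0.70 (adjusted p = 2.93e-03). MIR196A1, a microRNA gene in the same stretch, had 30, 43 and 47 counts in WT and 16, 11 and 9 in MUL1(-/-), and fell by 1.65 (adjusted p = 1.33e-03, edgeR). The libraries count long RNA over the microRNA gene and do not measure the mature microRNA.

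The microRNAs of the HOX clusters target HOX transcripts, and miR-196a and miR-196b have the same seed, shown in capitals (bases 2 to 8, RefSeq, GRCh38.p14), since the regions of MIR196A1 and MIR196B had values of opposite sign. The mature miR-196a-5p comes from MIR196A1 and also from MIR196A2.

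hsa-miR-196a-5p: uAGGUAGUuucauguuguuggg

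hsa-miR-196b-5p: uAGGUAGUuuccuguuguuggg

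The exon bin over MIR196B, at 27169480 to 27169563 and shared with HOXA9 and HOXA10-AS, was higher by 0.71 on the log2 scale in MUL1(-/-). MIR10B, in the HOXD cluster, had 31, 47 and 30 counts in WT and 44, 40 and 50 in MUL1(-/-), a log2 fold change of 0.39 (adjusted p = 0.250, edgeR). MIR196A2 and MIR615 had 0 to 8 counts per library and were not tested.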
